A study of Homo sapiens with 6 samples.

Results

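Epithelial junction genes were examined as a set of 10 mouse Ensembl gene identifiers (IDs), all of which were rows of the deposited table of 34866 IDs. The set holds Cdh1 and Ctnna1 of the adherens junction, Epcam, the tight junction genes Cldn3, Cldn4, Cldn7, Ocln and Tjp1, and the desmosome genes Dsp and Jup. The members were chosen by name as familiar junction components, with earlier results of these data known. The pairing of ID and symbol comes with that choice, since the table itself carries IDs only. RNA was sequenced in 2 groups of 3 libraries, and the labels name the cells as MKN45, which derives from a human stomach carcinoma. The GOLPH3 shRNA group had been given an adenovirus carrying a short hairpin RNA (shRNA) against Golph3, and the control shRNA group an adenovirus carrying a control shRNA, so that all libraries come from cells exposed to virus. The labels give 1 cell line and do not state the number of hairpins, the time after infection or whether the replicates were separate cultures, so that a p-value reflects the variation among these libraries alone, some or all of which may be technical.

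Several properties of the material bear on the values below. The counts are assigned to mouse gene IDs, and the submitters' processing notes name the mouse build mm10, although the cells are labelled as human; reads from human cells counted on mouse models and reads from mouse cells cannot be told apart in the table. A count is therefore not read as the abundance of a gene, counts are not compared between genes as levels, and a fold change compares 1 ID between libraries. MKN45 is also known to carry a mutation in CDH1, which the labels do not give. Whether it bears on the Cdh1 counts was not tested. The GOLPH3 shRNA libraries held 4977592 to 5676063 counts and the control libraries 6286946 to 7355057. Levels below are normalised counts (CPM), brought to the same library total with trimmed mean (TMM) factors. Across the 11400 IDs that passed the filter on low counts, Pearson's r of log2 CPM was 0.971 to 0.98 for libraries of the same group and 0.948 to 0.959 for libraries of unlike groups, and no library stood apart from its group. In RNA from whole cultures, fewer cells of a type and less RNA per cell cannot be told apart.

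Epithelial cells are held together by several kinds of lateral junction. In adherens junctions, E-cadherin (Cdh1) binds its counterpart on the neighbouring cell and is tied to actin through β-catenin and α-catenin (Ctnna1). Tight junctions seal the space between cells with claudins and occludin, which are anchored inside the cell by the scaffold ZO-1 (Tjp1), while desmosomes link cadherins through plakoglobin (Jup) and desmoplakin (Dsp) to keratin filaments. In the stomach these junctions separate the underlying tissue from acid. Loss of E-cadherin is a familiar feature of diffuse gastric cancer, in which CDH1 is often mutated.

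Of the 10 junction genes, 8 were lower in the GOLPH3 shRNA libraries, 0 were higher, 1 (Ctnna1) did not pass the test and 1 (Cdh1) had too few counts to be tested; without Epcam, whose call was lost in 7 of 15 alternative analyses, 7 were lower. The falls ran from 1.15-fold for Epcam to 2.24-fold for Tjp1. The median log2 fold change of the 9 tested members was -0.75, against 0.002 over all 11400 tested IDs, of which 17.8% were called lower and 16.1% higher, or 33.9% in either direction (edgeR quasi-likelihood F test, with a call at a Benjamini-Hochberg adjusted p under 0.05 over the whole table). Among the 4774 IDs whose mean level was at least that of the least counted tested member, Cldn4 (34.1 CPM), 25.1% were called lower, 30.3% had separate and lower GOLPH3 shRNA values, 1.28% were called at least 2-fold lower, and the median was 0.006. For each of the 8 genes that fell, the 3 GOLPH3 shRNA values lay wholly below the 3 control values, as they did for 24.2% of all tested IDs. Only 1 member, Tjp1, was called at least 2-fold lower, as were 2.91% of all tested IDs.

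The promoter sequences of some members are shown as a description, to be read beside the values that follow. RefSeq promoter windows of the human build GRCh38.p14, each with 250 bases before the annotated start and 50 after it, were matched by the human symbol for 8 of the 10 members; CDH1 and EPCAM were not among them. The windows were searched for CAGGTG, the E-box bound by the repressors of the SNAI and ZEB families, on both strands (CACCTG on the other), and matches are in capitals. The 3 members with a single annotated start in the table are printed, 5′ to 3′ on the strand of the gene. CLDN3 lies at chr7:73770221-73770520 on the minus strand, CLDN4 at chr7:73830746-73831045 on the plus strand and DSP at chr6:7541421-7541720 on the plus strand.
CLDN3: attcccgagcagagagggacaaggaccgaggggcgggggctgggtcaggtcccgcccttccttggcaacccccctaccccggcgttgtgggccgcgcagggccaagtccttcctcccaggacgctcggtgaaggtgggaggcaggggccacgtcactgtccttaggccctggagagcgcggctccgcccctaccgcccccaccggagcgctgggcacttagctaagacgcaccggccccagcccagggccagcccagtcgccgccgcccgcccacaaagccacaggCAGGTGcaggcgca
CLDN4: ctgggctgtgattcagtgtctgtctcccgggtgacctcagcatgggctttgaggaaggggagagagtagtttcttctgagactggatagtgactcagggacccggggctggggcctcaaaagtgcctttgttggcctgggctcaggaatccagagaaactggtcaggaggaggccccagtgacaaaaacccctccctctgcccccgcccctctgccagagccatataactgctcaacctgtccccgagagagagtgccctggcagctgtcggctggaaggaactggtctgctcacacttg
DSP: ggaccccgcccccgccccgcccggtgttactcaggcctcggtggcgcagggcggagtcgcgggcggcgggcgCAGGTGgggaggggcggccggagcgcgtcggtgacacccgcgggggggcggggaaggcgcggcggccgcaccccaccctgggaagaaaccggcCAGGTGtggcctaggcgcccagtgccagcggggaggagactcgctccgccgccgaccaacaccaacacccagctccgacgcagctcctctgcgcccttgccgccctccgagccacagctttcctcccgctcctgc
The CLDN3 window holds 1 match, 36 bases after the start, the DSP window holds 2, at 178 and 85 bases before it, and the CLDN4 window holds 0. Over all annotated starts of the 8 matched genes, 7 of 17 windows held the motif, against 20.6% of the 35116 windows of this length in the table. It was found at some start of 6 of the 8 genes, CLDN7, CLDN3, OCLN, TJP1, DSP and JUP, and at no start of CTNNA1 or CLDN4. Genes with more annotated starts, such as the 4 of CTNNA1 and of TJP1, had more windows in which to match. Windows of nearby starts can overlap, as those of OCLN do, so the 17 windows are not separate units. No share by gene over all genes was computed, so the count by gene cannot be set against the 20.6% of windows. The 35116 windows were not matched to those of the members for base composition. A match is a description of letters in a human window and not a binding site, and the windows of the mouse genes were not used here. Whether the motif bears on any of the falls was not tested.

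Cdh1 (ENSMUSG00000000303.12) encodes E-cadherin, the adhesive receptor of the adherens junction. It had 0, 1 and 1 counts in the GOLPH3 shRNA libraries, against 3, 1 and 1 in the control libraries. For this gene the counts of a group were also summed and divided by its summed library totals, without TMM factors. On that scale the 2 counts with GOLPH3 shRNA correspond to 0.124 CPM (exact Poisson 95% interval 0.015 to 0.447). The 5 control counts correspond to 0.249 CPM (0.0807 to 0.583). These intervals cover counting error only. All libraries were at or below a floor of 3 counts, so no fold is given. The other members had between 111 and 9964 counts in the same libraries, and 58% of all IDs in the table had fewer counts than Cdh1. Of the 4 epithelial markers whose IDs were available for a check of the cell label, Epcam, Cldn4 and Cldn7 were detected in every library and Cdh1 was close to 0 in both groups. A difference in Cdh1 between the groups was not detectable at this depth.

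Ctnna1 (ENSMUSG00000037815.6) encodes α-catenin, which connects the cadherin complex to actin, and it was the tested member that moved least. It had 1140, 1111 and 1201 CPM in the GOLPH3 shRNA libraries, against 1148, 1223 and 1205 CPM in the control libraries. The groups overlapped. The log2 fold change was -0.05 (SE 0.06, edgeR adjusted p = 0.572), with a 95% interval that placed the GOLPH3 shRNA level between 87.9% and 106% of the control level.

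Epcam (ENSMUSG00000045394.8) encodes an epithelial surface protein that is not itself part of a classical junction but binds claudin-7 and regulates adhesion. It had 595, 532 and 643 CPM with GOLPH3 shRNA, against 654, 677 and 711 CPM with control shRNA. The highest GOLPH3 shRNA value lay just under the lowest control value, a gap of 1.02-fold. The log2 fold change was -0.21 (SE 0.07, edgeR adjusted p = 0.0432), or 86.7% of the control level. Among the analyses that lost this call, the edgeR adjusted p reached 0.152 without GOLPH3 shRNA replicate 2, where the log2 fold change was -0.14.

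All 5 tight junction genes fell. Tjp1 (ENSMUSG00000030516.14), which encodes the scaffold ZO-1, had 44.2, 40.5 and 37.8 CPM in the GOLPH3 shRNA libraries, against 93.1, 94.9 and 86.5 CPM in the control libraries. The lowest control value was 1.96 times the highest GOLPH3 shRNA value. Its log2 fold change was -1.17 (SE 0.10, edgeR adjusted p = 4.65e-07). This was lower than that of all but 2.27% of the tested IDs, and of all but 0.712% of those with a mean CPM at least that of Cldn4.

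Ocln (ENSMUSG00000021638.12) encodes occludin, a membrane protein of the tight junction. It had 63.1, 66.6 and 58.9 CPM in the GOLPH3 shRNA libraries, against 103.7, 100.1 and 113.5 CPM in the control libraries. The groups were separate, and the level with GOLPH3 shRNA was 59.5% of that with control shRNA (log2 fold change -0.75, SE 0.09, edgeR adjusted p = 1.37e-05).

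All 3 claudins, which form the seal itself, fell. Cldn3 (ENSMUSG00000070473.4) had 69.9, 63.7 and 57.3 CPM with GOLPH3 shRNA, against 116.3, 130.1 and 113.6 CPM with control shRNA, and its log2 fold change was -0.92 (SE 0.10, edgeR adjusted p = 3.31e-06). Cldn4 (ENSMUSG00000047501.3) had 25.7, 19.9 and 26.4 CPM with GOLPH3 shRNA, against 47.9, 44.5 and 40.3 CPM with control shRNA, and its log2 fold change was -0.88 (SE 0.13, edgeR adjusted p = 9.5e-05). No library of either group crossed into the range of the other for these genes. CLDN3 and CLDN4 are neighbouring protein-coding genes on human chromosome 7, and within a library the count of Cldn4 per count of Cldn3 overlapped between the groups, at 0.368, 0.312 and 0.461 with GOLPH3 shRNA and 0.412, 0.342 and 0.355 with control shRNA. Cldn7 (ENSMUSG00000018569.12) had 91, 99.4 and 98.3 CPM with GOLPH3 shRNA, against 130.5, 150 and 137.3 CPM with control shRNA, a fall to 69.1% of the control level (log2 fold change -0.53, SE 0.08, edgeR adjusted p = 0.000125).

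**Figure D1:**
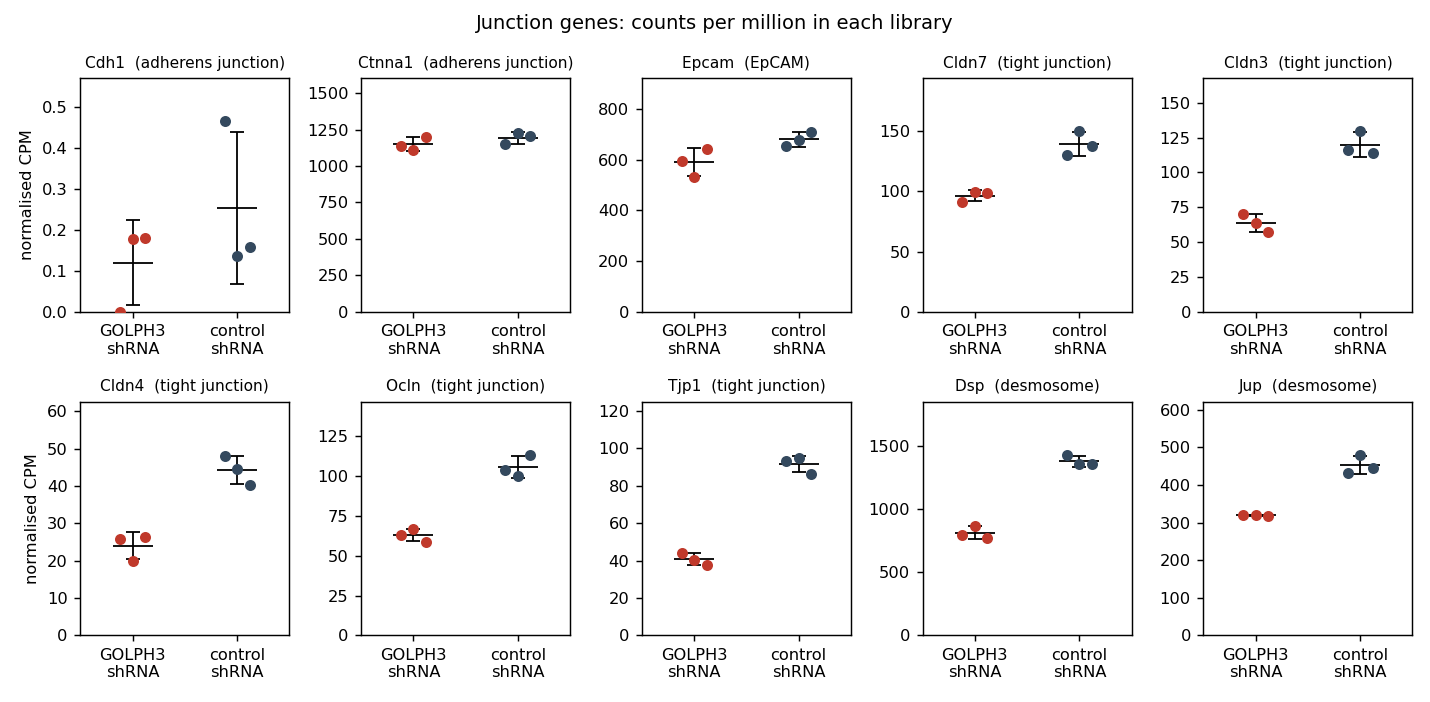
CPM of the 10 junction genes in each library (vertical axis, linear and from 0, with its own range per gene), with the 3 GOLPH3 shRNA libraries on the left and the 3 control libraries on the right of each panel; points are libraries, horizontal lines are means and bars are SD. The groups are separate in 8 panels, overlap for Ctnna1 and lie under 0.5 CPM for Cdh1.

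Both desmosome genes fell. Dsp (ENSMUSG00000054889.10) encodes desmoplakin, the protein that joins the desmosomal plaque to keratin filaments, and had 799, 871 and 771 CPM in the GOLPH3 shRNA libraries, against 1431, 1359 and 1358 CPM in the control libraries. The groups were far apart relative to their spread, with means of 814 ± 51.8 and 1383 ± 42.2 CPM (SD, n = 3 each) for GOLPH3 shRNA and control shRNA. The log2 fold change was -0.76 (SE 0.07, edgeR adjusted p = 6.96e-07).

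Jup (ENSMUSG00000001552.14) encodes plakoglobin, an armadillo protein related to β-catenin that is found in desmosomes and adherens junctions. It had 320.5, 319.4 and 316.6 CPM with GOLPH3 shRNA, against 433, 480.0 and 445 CPM with control shRNA. The 3 GOLPH3 shRNA values of Jup varied by less than those of any other member, with a coefficient of variation of 0.634% against 5.42% in the control libraries. A spread from 3 values is imprecise and is not read as a trait of Jup. In the control libraries Dsp varied by less than Jup, at 3.05%. The level fell to 70.5% of the control level (log2 fold change -0.50, SE 0.07, edgeR adjusted p = 2.88e-05). Jup was also the only member with a deposited estimate that departed from a whole number by more than 1e-06, in control replicate 2 (3520.02 counts).

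**Figure D2:**
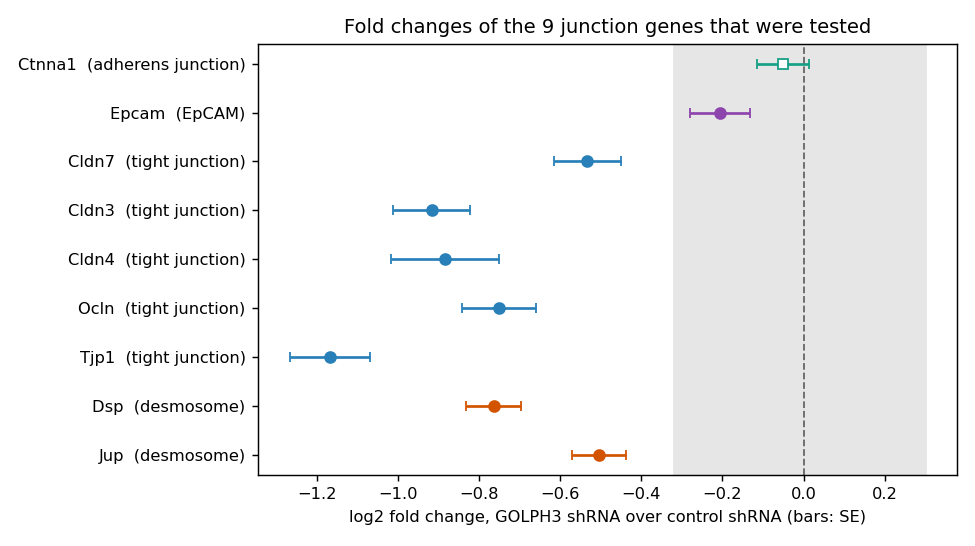
Log2 fold changes (GOLPH3 shRNA over control shRNA, horizontal axis) of the 9 tested junction genes, coloured by structure, with SE as bars, filled circles for genes that passed the test and an open square for Ctnna1. The dashed line is the median of all tested IDs (0.002) and the grey band spans their quartiles (-0.32 to 0.30); Epcam and Ctnna1 lie inside the band and the other 7 to the left of it.

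**Figure D3:**
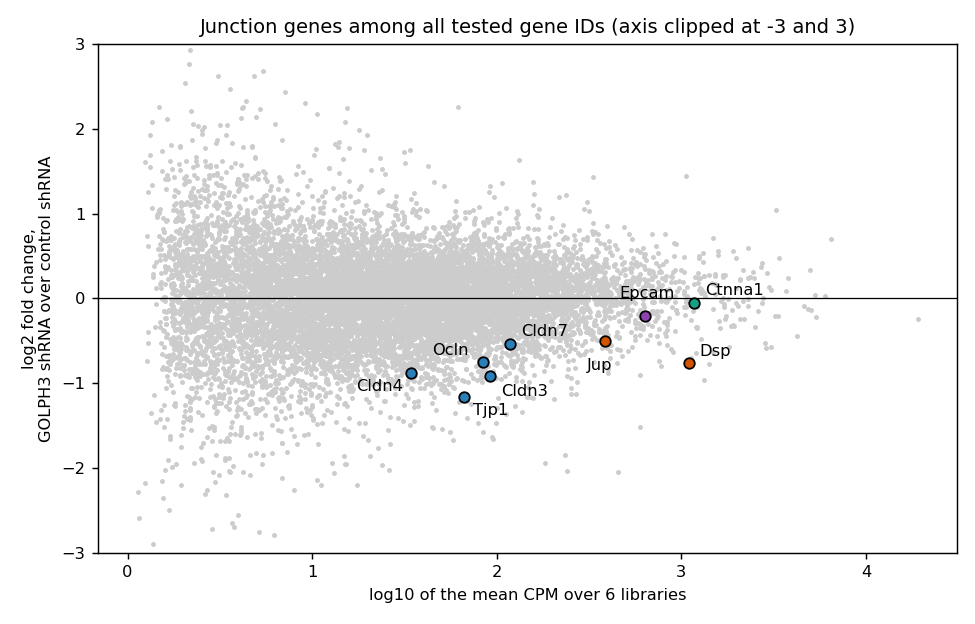
Log2 fold change (vertical axis) against log10 of the mean CPM (horizontal axis) for the 11400 tested IDs in grey and the 9 tested junction genes in colour, by structure as in the plot of fold changes. The axis ends at -3 and 3, beyond which 9 grey IDs lie. Among IDs with a mean CPM at least that of Cldn4, 0.712% lie lower than Tjp1, 2.18% lower than Cldn3 and 2.43% lower than Cldn4. The shares are 4% for Dsp, 4.13% for Ocln, 9.93% for Cldn7, 10.7% for Jup, 29.1% for Epcam and 43.6% for Ctnna1.

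The changes were unequal among the members, as ratios of counts within a library show, which do not depend on the scaling between libraries. The pairs were chosen after the counts had been seen and are given as a description, with no test. Dsp per Ctnna1 was 0.701, 0.785 and 0.642 in the GOLPH3 shRNA libraries, against 1.25, 1.11 and 1.13 in the control libraries. Tjp1 per Ctnna1 was 0.0388, 0.0364 and 0.0314 with GOLPH3 shRNA, against 0.0811, 0.0776 and 0.0718 with control shRNA, so that the mean ratio was 0.463 times the control ratio. Dsp per Jup averaged 2.55 ± 0.155 with GOLPH3 shRNA and 3.06 ± 0.238 with control shRNA (SD, n = 3 each), and Tjp1 per Ocln averaged 0.65 ± 0.0473 with GOLPH3 shRNA and 0.87 ± 0.0961 with control shRNA. Cldn7 per Epcam, whose proteins bind each other, averaged 0.164 ± 0.0195 with GOLPH3 shRNA and 0.205 ± 0.015 with control shRNA. Each of these ratios was lower in all 3 GOLPH3 shRNA libraries than in any control library. Ctnna1 was not called, so the ratios to it largely restate the falls of Dsp and Tjp1. Because of how the pairs were chosen, the separation adds no evidence to the fold changes above, and its share over other pairs of IDs was not computed.

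**Figure D4:**
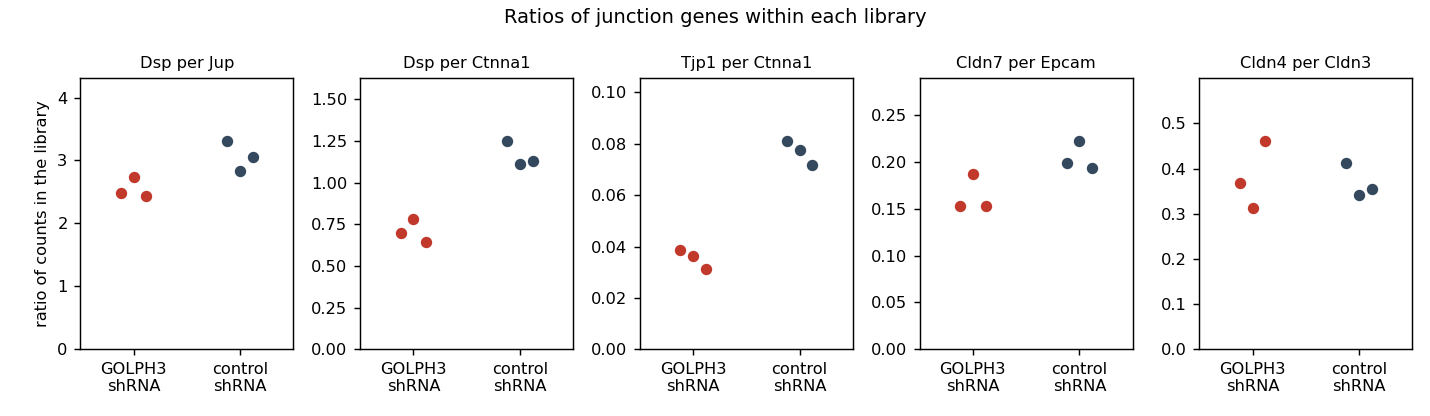
Ratio of the counts of a pair of junction genes within each library (vertical axis, linear and from 0), GOLPH3 shRNA libraries on the left and control libraries on the right of each panel; points are libraries. Dsp per Jup, Dsp per Ctnna1, Tjp1 per Ctnna1 and Cldn7 per Epcam are separate between the groups, and Cldn4 per Cldn3 overlaps.

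Added together, the 10 members made up 0.315%, 0.312% and 0.321% of the normalised counts in the GOLPH3 shRNA libraries, against 0.416%, 0.426% and 0.421% in the control libraries. The sum with GOLPH3 shRNA was 75.1% of the sum with control shRNA. Ctnna1, Dsp and Epcam hold most of the counts in this sum, so it follows these 3 genes more than the claudins, Ocln and Tjp1. Both the sum and these shares are of counts on mouse IDs and are not read as abundance. Markers of other cell types, the repressors of junction genes, GOLPH3 itself and further junction components were not analysed here, since the table pairs no symbols with its IDs, and their part in the result was not tested.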

How the data were processed

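RNA sequencing of 6 libraries was analysed, 3 with GOLPH3 shRNA and 3 with control shRNA. The deposited table holds the authors' estimated counts per mouse Ensembl ID; the genome build is mm10 per the submitters' processing notes, and the libraries were stranded and selected for messenger RNA per the labels' protocols. For the aligner, quantifier, annotation release and strand setting, nothing is given in the sources used here, and reads shared between gene copies could have been divided in ways that cannot be checked.

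Counts were rounded to whole numbers, filtered with filterByExpr (11400 of 34866 IDs, holding 99.7% to 99.8% of each library) and fitted with edgeR 4.0.16 in R 4.3.3 (TMM factors, quasi-likelihood F test, Benjamini-Hochberg adjustment over all tested IDs, call at 0.05). The SE is the log2 fold change over the square root of F. This step was run on counts simulated from the fitted model, with known changes in a small part of the IDs. Such a run checks the code and not how well the model describes these libraries. Alternatives used DESeq2 1.42.0, limma 3.58.1 (voom), other scalings and filters, the replicate block, thinned libraries and each library left out. All 10 members are named by rule. Members, lists and tests were chosen with earlier results of these data known. Other junction genes and cell type markers, listed by symbol, could not be matched to the IDs and were not run.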

Additional observations from a re-analysis of the deposited data

How the results depend on the processing

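The count of members called lower was 7 or 8 and that of members called higher was 0 under the 9 other settings and the 6 fits without a library; over all IDs, 1736 to 1952 were higher and 1830 to 2222 lower under the other settings, and 1425 to 1665 higher and 1644 to 1929 lower without a library. Without a library, the log2 ratio of the summed CPM of the members was -0.43 to -0.41. Tjp1, Cldn3, Cldn4, Ocln, Dsp, Cldn7 and Jup were called lower in all 15 alternatives, with log2 fold changes from -1.23 to -1.12 for Tjp1 and from -0.54 to -0.47 for Jup, and Ctnna1 was called in none (-0.09 to -0.03). Epcam missed the threshold with RLE factors (-0.20, edgeR adjusted p = 0.0539), upper-quartile factors (-0.19, edgeR adjusted p = 0.0571) and thinned libraries (-0.20, edgeR adjusted p = 0.0525), and without GOLPH3 shRNA replicates 1 or 2 or control replicates 2 or 3 (edgeR adjusted p from 0.0938 to 0.152); the cause was not tested. With no filter on low counts Cdh1 could be fitted, with an edgeR adjusted p of 0.729, which at 7 counts in all says nothing about its stability. With the replicate number as a block, 1842 IDs were higher, 2045 lower and 8 members lower. Deviations of same-numbered libraries from their group means correlated at 0.032, 0.09 and 0.044, so the numbers were not taken as pairs; 5 of the 6 libraries had their highest correlation with the same number, the exception being control replicate 1, which reached 0.037 with GOLPH3 shRNA replicate 3. At 0 to 3 counts per library, no difference in Cdh1 could be detected. All alternatives for the summed CPM were added after the data were examined.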
